A study of Strongylocentrotus purpuratus with 191 samples.

Results

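The transcription factor genes gsc, FoxG and Lim1 of the oral ectoderm were read with 14 probes, out of 336 probes for 74 genes on a custom DASL panel of the sea urchin developmental gene network. The 3 genes were chosen by name, and every probe that the authors' normalized table lists under them was kept: 5 for gsc, 5 for FoxG and 4 for Lim1. Cultures of the purple sea urchin Strongylocentrotus purpuratus, started from 32 crosses, were raised to gastrula in growth chambers set to 12C, 15C or 18C, with 64, 63 and 64 cultures, and total RNA of whole embryos was assayed. Sampling time, in a unit the labels do not state, lay between 36.85 and 38.12 for the cultures at 12C, between 27.65 and 29.05 for those at 15C and between 22.53 and 23.77 for those at 18C. These ranges do not overlap, so a difference between temperatures cannot be told apart from one between sampling times. Within block 4 and within block 3, 4 females were each mated to 4 males, which gave 16 crosses a block. All cultures were raised in artificial sea water and no other agent or allele is named in the labels. Each cross was grown in 2 replicates per temperature, except for 1 combination with 1 culture. A parent's name joins a letter to its block, and a female and a male of the same name (A3, for example) are separate animals.

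At gastrula the ectoderm of the sea urchin embryo is divided into an oral side, where the mouth will open, and an aboral side. Nodal, a secreted ligand made on the oral side, sets up this division and activates a set of transcription factor genes there. gsc encodes goosecoid, a homeodomain repressor of the oral ectoderm. FoxG encodes a forkhead factor of the oral ectoderm and the ciliary band that borders it. Lim1 encodes a LIM-homeodomain factor, in which LIM domains, built around cysteines that hold zinc, stand beside a DNA-binding homeodomain.

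The probes were 40 to 48 bases long. Per the feature names of the files, those of gsc lie in exons 2 and 3, all 5 of FoxG in exon 1, and those of Lim1 in exons 1, 3 and 5. The first 3 sequences below are shown because each reads through a part of the protein that defines its family, with the codons of that part in capitals; the other 5 belong to probes on which results below turn and have no capitals.
gsc 5188, exon 3, homeodomain recognition helix: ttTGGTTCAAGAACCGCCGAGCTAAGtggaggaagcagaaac
FoxG 1862, exon 1, forkhead recognition helix: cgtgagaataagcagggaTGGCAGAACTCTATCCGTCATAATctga
Lim1 5127, exon 1, LIM domain cysteines: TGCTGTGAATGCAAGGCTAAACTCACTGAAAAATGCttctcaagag
gsc 1938, exon 3: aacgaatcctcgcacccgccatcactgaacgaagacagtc
FoxG 3972, exon 1: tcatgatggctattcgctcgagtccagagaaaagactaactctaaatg
FoxG 814, exon 1: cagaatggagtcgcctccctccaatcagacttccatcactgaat
Lim1 3981, exon 1: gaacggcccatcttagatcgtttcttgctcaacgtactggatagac
Lim1 6030, exon 3: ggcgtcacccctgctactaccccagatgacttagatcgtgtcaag
In the translated probes of the whole panel, the homeodomain helix was found in 2 of 336 probes (the other belongs to Eve), and the forkhead helix and the LIM cysteine spacing in 1 of 336 each. Such a match describes the letters of the probe. The sequences that define gsc and FoxG are close to those of other homeobox and forkhead genes, and whether these probes also bind RNA of related genes was not tested.

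All 3 genes gave signal above the 27 negative control probes on both plates. Each block had a plate of its own. A difference between blocks therefore cannot be told apart from one between plates, and levels before normalization are given per block without a test. The mean log2 signal of gsc above the mean of the negative controls ran from 2.83 to 4.62 over the 95 cultures of block 4 (median 3.58) and from 1.40 to 3.18 over the 96 cultures of block 3 (median 2.22). That of FoxG ran from 3.78 to 5.09 in block 4 (median 4.46) and from 2.07 to 3.56 in block 3 (median 2.86). That of Lim1 ran from 2.81 to 4.31 in block 4 (median 3.48) and from 1.38 to 2.86 in block 3 (median 2.15). The ranges of the plates overlapped for gsc and Lim1 and did not for FoxG. Over all genes, the median of the gene means was 3.99 in block 4 and 2.34 in block 3, so the plates differed across the panel. Of the 14 probes, 10 exceeded the 95th percentile of the negative controls of their array in every culture. The probe on the gsc homeodomain helix, 5188, did so in 49 of 95 cultures of block 4 and in 77 of 96 of block 3, while Lim1 4997 did in 89 of 95 and 93 of 96. Of the 14 oral ectoderm genes on the panel, 12 had a probe that passed this level in most cultures of each block. Not and Otp, 2 homeobox genes, had none.

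Below, a gene's value is the mean of the log2 normalized values of its probes. Each probe averages 0 within its plate on this scale, so the values show differences within a block and no level. A gene was called where the adjusted p of the limma test over all 74 genes was under 0.05. In RNA of whole embryos, fewer expressing cells and less RNA per cell cannot be told apart.

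In the tests over both blocks together, none of the 3 genes passed this threshold for a difference between temperatures. gsc in block 4 had cross means from -0.72 to 0.55 at 12C (median -0.040), from -0.47 to 0.71 at 15C (median -0.0050) and from -0.21 to 0.63 at 18C (median -0.024). In block 3 the cross means of gsc ran from -0.26 to 0.29 at 12C, from -0.24 to 0.46 at 15C and from -0.31 to 0.19 at 18C. The temperatures overlapped widely in both blocks. The difference of gsc at 18C against 12C was 0.047 ± 0.042 (log2, SE, 32 crosses), with 19 of 32 crosses higher at 18C, and limma gave an adjusted p of 0.500. Across the panel 17.6% of genes were called in that comparison (8 higher and 5 lower at 18C). The 95% interval of that difference ran from -0.037 to 0.13.

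FoxG in block 4 had cross means from -0.24 to 0.11 at 12C, from -0.12 to 0.28 at 15C and from -0.30 to 0.20 at 18C, and in block 3 from -0.27 to 0.44, from -0.20 to 0.11 and from -0.12 to 0.29 at the same temperatures. Its difference at 18C against 12C was 0.019 ± 0.032, with 17 of 32 crosses higher (adjusted p 0.749; 95% interval from -0.045 to 0.083). Lim1 differed by 0.046 ± 0.041 at 18C against 12C, with 20 of 32 crosses higher (adjusted p 0.500; 95% interval from -0.036 to 0.13). At 15C against 12C the differences were 0.067 ± 0.042 for gsc, 0.036 ± 0.032 for FoxG and 0.046 ± 0.041 for Lim1, each with an adjusted p of 0.728, where 4.05% of genes were called. FoxG was higher at 15C than at 12C in 25 of 32 crosses, although its mean difference was within the spread between crosses. With the median of the gene values of each array subtracted, FoxG was higher in 20 of 32. At 18C against 15C the differences were -0.020 for gsc, -0.017 for FoxG and 0.00058 for Lim1, and 4.05% of genes were called. Set against the average of the outer temperatures, 15C departed by 0.044 ± 0.036 for gsc, 0.027 ± 0.028 for FoxG and 0.023 ± 0.036 for Lim1, with no gene of the panel called (4 of 74 had an unadjusted p under 0.05).

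**Figure D1:**
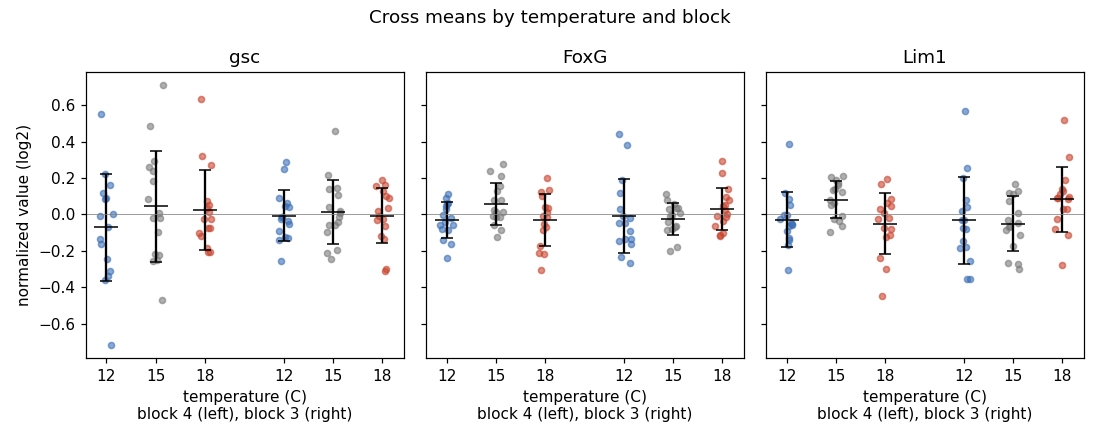
Normalized log2 values of gsc, FoxG and Lim1 at 12C, 15C and 18C in block 4 (left) and block 3 (right). Each point is the mean of the cultures of a cross, and bars are the mean and SD over 16 crosses. The temperatures overlap widely for all 3 genes, and Lim1 is highest on average at 15C in block 4 and at 18C in block 3.

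Among the other oral ectoderm genes, 3 genes of secreted signals passed the test. These 3 of the 14 genes on the oral ectoderm list, near the 17.6% called over the panel, were higher at 18C than at 12C, and none was lower: nodal (0.13 ± 0.033), its antagonist Lefty (0.12 ± 0.039) and BMP2-4, a ligand gene that Nodal activates (0.12 ± 0.041). The median change of the list was 0.030, against 0.015 over all 74 genes. No gene of the list was called at 15C against 12C or at 18C against 15C.

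The temperature pattern of Lim1 differed between the blocks in the test of that difference, a call that several other settings ended. In block 4 the mean over 16 crosses was -0.028 ± 0.15 (SD) for cultures at 12C, 0.081 ± 0.10 for those at 15C and -0.052 ± 0.17 for those at 18C. In block 3 the corresponding means were -0.033 ± 0.24, -0.050 ± 0.15 and 0.083 ± 0.18. The cross means of Lim1 ran from -0.45 to 0.39 over the temperatures in block 4 and from -0.36 to 0.57 in block 3, so the temperatures overlapped within each block. At 15C against 12C, Lim1 differed by 0.11 in block 4, with 12 of 16 crosses higher, and by -0.017 in block 3, with 8 of 16 crosses higher (adjusted p 0.129 and 0.835; 6.76% of genes called in block 4 and none in block 3, where 13 of 74 had an unadjusted p under 0.05). At 18C against 15C it differed by -0.13 in block 4, with 10 of 16 crosses lower, and by 0.13 in block 3, with 11 of 16 crosses higher (adjusted p 0.0526 and 0.165; 9.46% of genes called in block 4 and none in block 3, where 19 of 74 had an unadjusted p under 0.05). At 18C against 12C it differed by -0.024 in block 4 and by 0.12 in block 3, and neither was called (10.8% of genes called in block 4 and 5.41% in block 3). The moderated F test of the difference between the blocks in the temperature response gave F = 6.01 and an adjusted p of 0.0299. That test had 2 df, and 60 residual df before moderation, and 16.2% of genes were called in it. It counted the 16 crosses of a block as separate units, although they share 4 females and 4 males. It held no term for parent by temperature, so its p may be too small. Taken singly, neither the difference in 15C against 12C (0.13, adjusted p 0.218; 13.5% of genes called) nor that in 18C against 12C (-0.14, adjusted p 0.727; none called, 4 of 74 at an unadjusted p under 0.05) passed.

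Within block 4 alone, Lim1 at 15C departed from the mean of 12C and 18C by 0.12 (adjusted p 0.0466), where 16.2% of genes were called, all of them higher. In block 3 the departure was -0.075 (adjusted p 0.331), where no gene was called (17 of 74 at an unadjusted p under 0.05). The median of the gene values of an array, called the array median here, was also highest at 15C in block 4 and at 18C in block 3: in block 4 it was -0.020, 0.045 and -0.0020 on average from the coolest to the warmest cultures, and in block 3 it was 0.012, -0.031 and 0.025. With the array median subtracted the call for Lim1 was lost (F = 4.57, adjusted p 0.207; 2.70% of genes called), and the change at 18C against 15C was -0.085 in block 4 and 0.077 in block 3. The call was also lost without replicate 1 (adjusted p 0.735), without replicate 2 (0.0704), without any of 7 of the 32 crosses, 3 of the 8 females or 5 of the 8 males taken singly, and without probe 6030 (0.0754). It was lost as well with the median of the probes (0.172), with the brightest probe (0.290) and from the non-normalized table, centred (0.148) or quantile normalized (0.368).

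The 4 probes of Lim1 did not carry this difference evenly. At 15C against 12C, probe 6030 in exon 3 differed by 0.22 ± 0.083 in block 4 and by -0.13 ± 0.099 in block 3 (SE), with F = 5.36 and an adjusted p of 0.0642 over all 336 probes, of which 9.82% were called. Probe 5127 on the LIM cysteines differed at 18C against 12C by -0.13 ± 0.057 in block 4 and 0.041 ± 0.061 in block 3 (F = 3.04, adjusted p 0.206). Probe 4997 in exon 5 differed at 18C against 12C by 0.020 ± 0.17 in block 4 and 0.27 ± 0.090 in block 3 (F = 1.51, adjusted p 0.446). Probe 3981 gave F = 1.74 and an adjusted p of 0.403. For FoxG the gene gave F = 2.77 (adjusted p 0.215), with an adjusted p of 0.0355 where each gene was read by its brightest probe alone, and its probe 4012 F = 5.54 (adjusted p 0.0582). For gsc the gene gave F = 0.838 (adjusted p 0.577). In the single difference between blocks at 15C against 12C, gsc 3481 had 0.28 ± 0.098 and Lim1 6030 had 0.35 ± 0.13 (adjusted p 0.0551 and 0.0736), where 8.04% of probes were called. On the oral ectoderm list, Not and Otp were called beside Lim1, 3 of 14 in all beside the panel's 16.2%, and these 2 are the genes of the list that were not detected above the negative controls.

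By probe, too, none of the 14 passed the threshold for a change with temperature. At 18C against 12C, 4 of the 5 gsc probes had a positive estimate, from 0.041 ± 0.030 for 2360 to 0.12 ± 0.051 for 3481, and the helix probe 5188 had -0.083 ± 0.052. The lowest adjusted p of a member probe in that comparison was 0.144 for gsc 3481 in exon 2, where 8.93% of probes were called. For Lim1 the exon 3 and exon 5 probes had 0.12 ± 0.070 (6030) and 0.14 ± 0.097 (4997), while those in exon 1 had -0.045 ± 0.043 (5127) and -0.033 ± 0.048 (3981). For FoxG, whose 5 probes share an exon, the estimates ran from -0.033 ± 0.044 (814) to 0.059 ± 0.039 (4012). At 15C against 12C, FoxG 1862 on the forkhead helix had 0.12 ± 0.045 (unadjusted p 0.00834, adjusted p 0.350; 0.595% of probes called). At 18C against 15C the lowest adjusted p of a member probe was 0.472, for FoxG 1862 (3.57% of probes called). The signs of the probes of a gene thus differed for each of the 3 genes at 18C against 12C.

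**Figure D2:**
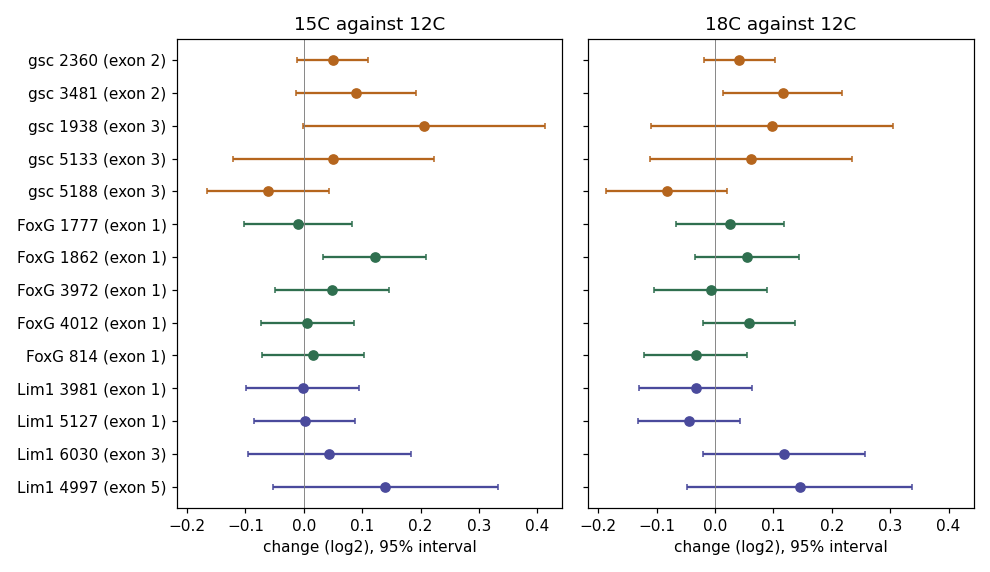
Change of the log2 normalized value of each probe at 15C against 12C and 18C against 12C, with 95% intervals from limma over 32 crosses. Colours mark gsc (top 5 probes), FoxG (middle 5) and Lim1 (bottom 4); at 18C against 12C probes of the same gene lie on both sides of 0.

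The mother of a culture was associated with the value of each of the 3 genes. For gsc in block 4, the crosses of female B4 had values of -0.00079, 0.13, 0.32 and 0.47 around the block mean, and those of female C4 had -0.33, -0.26, -0.13 and -0.11. All 4 crosses of B4 thus lay above all 4 of C4. The females of block 4 averaged 0.23 ± 0.21 (B4), 0.072 ± 0.11 (D4), -0.096 ± 0.21 (A4) and -0.21 ± 0.10 (C4) (SD, 4 crosses each), a range of 1.35-fold from highest to lowest. In block 3 the females averaged 0.052 ± 0.093 (A3), 0.041 ± 0.076 (B3), -0.0066 ± 0.13 (C3) and -0.086 ± 0.061 (D3), a range of 1.10-fold. The median range over all genes was 1.14-fold for block 4 and 1.11-fold for block 3. The block 4 range of gsc was the fourth of 74, and rank 10 with the array median subtracted. This range includes probe 5188, which exceeded the negative controls in 49 of 95 cultures of block 4. The moderated F test over both blocks gave F = 7.71 and an adjusted p of 0.000467, in a comparison where 81.1% of genes were called. That test had 6 df, and 18 residual df before moderation.

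For FoxG the range between mothers was smaller than that of the median gene. Its females averaged between 0.055 ± 0.0087 (B4) and -0.074 ± 0.077 (C4) in block 4, and between 0.045 ± 0.057 (B3) and -0.087 ± 0.040 (D3) in block 3 (SD, 4 crosses each). The 4 crosses of B4 fell between 0.046 and 0.066, and the 4 crosses of C4 ran from -0.15 to 0.031, with no overlap. All 4 crosses of D3 were below the block mean, from -0.14 to -0.044. These ranges were 1.09-fold and 1.10-fold, and FoxG was called (F = 3.66, adjusted p 0.0178).

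For Lim1, the crosses of female D4 averaged 0.10 ± 0.094 and were the highest of block 4, where A4 was the lowest at -0.067 ± 0.074. On 3 of the 4 probes, and with the array median subtracted (-0.092), the lowest female of block 4 was B4 instead. In block 3 the crosses of C3 averaged 0.14 ± 0.098, with all 4 above the block mean (from 0.036 to 0.27), and D3 was the lowest at -0.065 ± 0.061. The other 2 females of block 3 averaged -0.027 (B3) and -0.046 (A3), which lay within the spread of D3. Between highest and lowest female Lim1 differed 1.13-fold in block 4, and 1.15-fold for the females of block 3, and Lim1 was called (F = 5.28, adjusted p 0.00334). The females that stood highest differed between the genes: B4 for gsc and FoxG against D4 for Lim1 in block 4, and A3, B3 and C3 for gsc, FoxG and Lim1 in block 3.

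Within block 4 alone, the effect of the mother was called for gsc (adjusted p 0.00687), FoxG (0.0376) and Lim1 (0.0428), where 59.5% of genes were called. Within block 3 alone, it was called for Lim1 (0.0179) and was 0.0825 for gsc and 0.101 for FoxG, where 36.5% of genes were called. The array median also differed between mothers, at 0.057 for B4 and -0.063 for C4 in block 4 and -0.064 for D3 in block 3. With it subtracted, 66.2% of genes were called, gsc kept its order of females in block 4 (B4, D4, A4, C4) and a range of 1.25-fold (adjusted p 0.00617), and Lim1 kept D4 and C3 as its highest females (adjusted p 0.000375). FoxG was then at an adjusted p of 0.0564, and its highest females were A4 and A3. From the non-normalized table the adjusted p of FoxG was 0.392, and gsc and Lim1 kept their calls. Using only 1 replicate per combination took the calls of FoxG (adjusted p 0.0997 without replicate 1 and 0.253 without replicate 2) and of Lim1 (0.108 and 0.106), and that of gsc without replicate 1 (0.108), where 33.8% (without replicate 1) and 47.3% (without replicate 2) of genes were called.

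**Figure D3:**
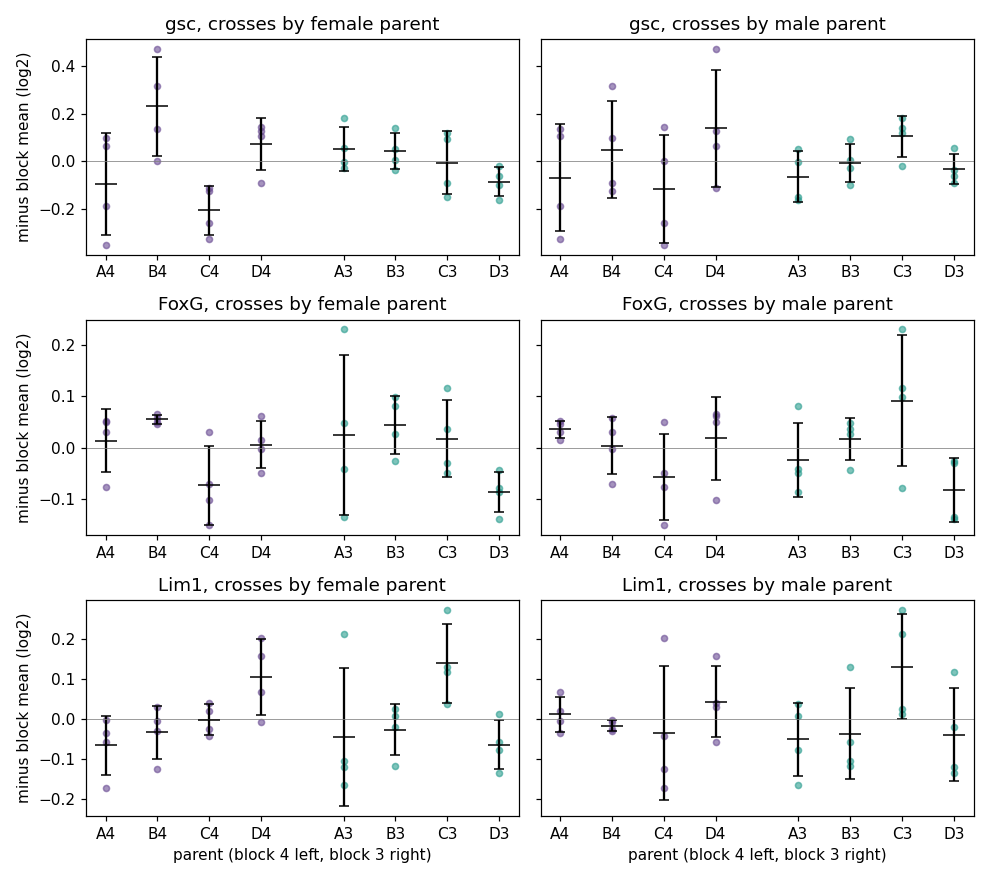
Cross means of gsc, FoxG and Lim1 minus the block mean (log2), by female parent (left panels) and male parent (right panels), with block 4 left of block 3 in each panel. Points are crosses, and bars are the mean and SD over the 4 crosses of a parent. Among the females of block 4 for gsc, B4 and C4 do not overlap each other, while both overlap A4. Male C3 has the highest mean in block 3 for all 3 genes. The axis range differs between the genes.

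The father was also associated with the value of each gene, with adjusted p of 0.0228 for gsc (F = 3.57), 0.0146 for FoxG (F = 4.01) and 0.0311 for Lim1 (F = 3.22), where 75.7% of genes were called. In block 3, male C3 had the highest mean for all 3 genes: 0.11 ± 0.087 for gsc, 0.091 ± 0.13 for FoxG and 0.13 ± 0.13 for Lim1 (SD, 4 crosses each). His 4 crosses ran from -0.018 to 0.18 for gsc, from -0.079 to 0.23 for FoxG and from 0.012 to 0.27 for Lim1. The lowest males of block 3 were A3 for gsc (-0.065 ± 0.11) and Lim1 (-0.051 ± 0.091) and D3 for FoxG (-0.083 ± 0.063). Male C3 also had the highest array median, at 0.083. In block 4 the ranges between males were 1.19-fold for gsc (D4 to C4), 1.07-fold for FoxG (A4 to C4) and 1.06-fold for Lim1 (D4 to C4), and C4 was the lowest male for each gene. C4 also had the lowest array median of those males, at -0.047. With it subtracted, the lowest male of block 4 was D4 for FoxG (-0.044) and Lim1 (-0.020). By probe, C4 was the lowest male of block 4 only on gsc 1938, FoxG 3972 and 1862, and Lim1 6030. Male A4 was the lowest on 3 of 5 probes of gsc and on 2 of 4 of Lim1.

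Within block 3 alone the effect of the father was called for gsc and FoxG (adjusted p 0.0429 each) and Lim1 (0.0305), where 45.9% of genes were called. Within block 4 alone it was not called for gsc (0.0926), FoxG (0.140) or Lim1 (0.475), where 35.1% of genes were called. With the array median subtracted, 54.1% of genes were called, FoxG kept its call (adjusted p 0.0281) with another order of males, A3 in place of C3 being the highest of block 3 and the range there 1.05-fold in place of 1.13-fold, and gsc (0.305) and Lim1 (0.463) lost theirs. From the non-normalized table none of the 3 was called (0.280, 0.156 and 0.778 for gsc, FoxG and Lim1). Without replicate 2 all 3 lost their calls (0.831, 0.381 and 0.722 for gsc, FoxG and Lim1), where 13.5% of genes were called. Without male C3 the adjusted p of Lim1 was 0.651, and without probe 6030 it was 0.327. On the oral ectoderm list the mother was called for 12 of 14 genes and the father for 11 of 14, near the panel's 81.1% and 75.7%.

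The probes of a gene ranked the parents alike in some cases and not in others. For Lim1, female D4 was the highest of block 4 and female C3 the highest of block 3 on all 4 probes. Male C3 was also the highest of block 3 on all 4, but the males hardly differed on 3981. There they ranged 1.008-fold, from 0.0077 ± 0.16 (C3) to -0.0045 ± 0.10 (B3) (SD), against 1.33-fold on 6030. For gsc in block 4, female B4 was the highest and C4 the lowest on 4 of 5 probes; on the fifth, 3481, they were D4 and A4. For FoxG, female C4 was the lowest of block 4 and D3 the lowest of block 3 on 4 of 5 probes each. Among the males of block 4 the probes of a gene did not agree: the highest male was shared by at most 2 probes for each of the 3 genes.

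The helix probe gsc 5188 had the lowest adjusted p of the 14 for the mother (F = 14.8, adjusted p 3.43e-05, where 61.3% of probes were called). On it, the crosses of female B4 averaged 0.46 ± 0.39 and those of C4 -0.34 ± 0.29 (log2, SD, 4 crosses each). This probe exceeded the negative controls in 15 of 24 cultures of B4 and in 6 of 23 of C4, so no fold is given. Over the males of block 4 it averaged 0.28 ± 0.42 for B4 and -0.41 ± 0.36 for A4 (F = 10.1 and adjusted p 0.000378 over both blocks, where 51.8% of probes were called), and it exceeded the controls in 18 of 24 and 7 of 24 cultures of these males. gsc 1938, in the same exon, had a range of 1.64-fold between the females B4 and C4 (adjusted p 0.00328) and of 1.69-fold between the males A4 and C4 (adjusted p 0.00360). Male A4 was therefore the highest on 1938, at 0.25 ± 0.51, and the lowest on 5188. Without 5188 the gene value of gsc kept its call for the mother (adjusted p 0.00327) and for the father (0.0252).

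Of the other gsc probes, 2360 and 5133 were called for the mother, and 2360 and 3481 for the father. FoxG 814, 1862 and 4012 were called for the mother (adjusted p from 0.0127 to 0.0201), and 3972 (F = 10.2, adjusted p 0.000367) and 4012 (0.0142) for the father. On FoxG 3972, the crosses of male D3 averaged -0.19 ± 0.076 and those of B3 0.075 ± 0.032. Without 3972 the gene value of FoxG was not called for the father (adjusted p 0.0633). Lim1 6030 was called for the mother (0.0363) and the father (0.0160), where male C3 averaged 0.30 ± 0.14 and D3 -0.11 ± 0.16, and 3981 was called for the mother (0.00888). Lim1 4997 and 5127 were called for neither parent. Without 3981 the gene value of Lim1 was not called for the mother (adjusted p 0.0515).

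**Figure D4:**
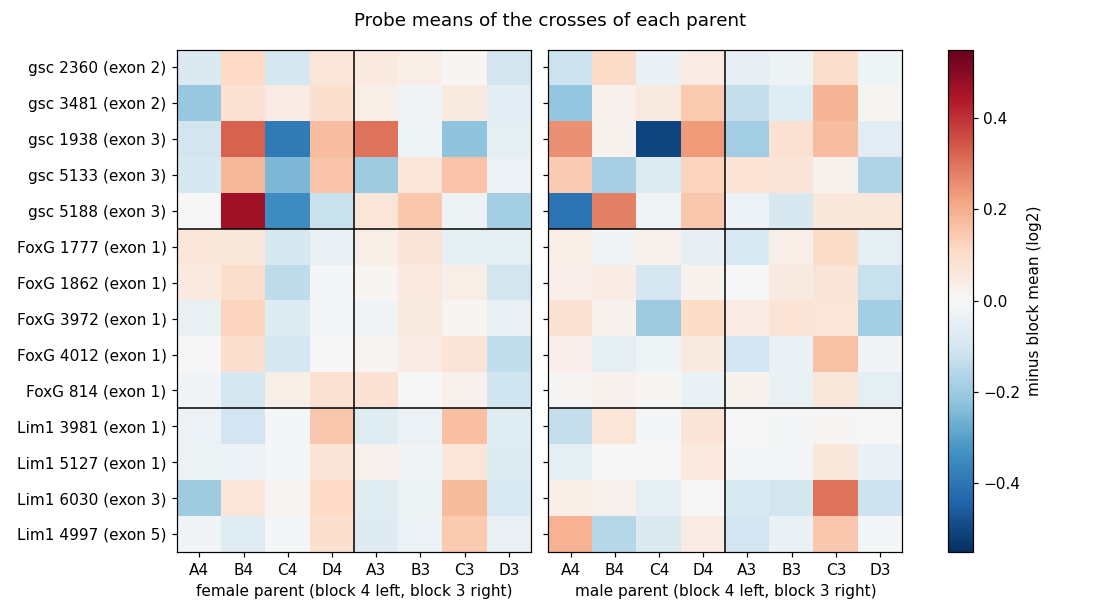
Mean of each probe over the 4 crosses of each female (left) and male (right), minus the block mean (log2; red higher, blue lower), with block 4 left of block 3. Rows are the probes of gsc (top), FoxG (middle) and Lim1 (bottom); gsc 1938 runs from -0.50 for male C4 to 0.32 for female B4, and gsc 5188 is not above the negative controls in many cultures.

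The temperature response did not differ between parents past the threshold for any of the 3 genes, nor for any gene of the panel (0 of 74 called for mothers and for fathers by limma, 7 and 2 at an unadjusted p under 0.05). Lim1 came nearest among the 3, with F = 2.06 for mothers (unadjusted p 0.0435, adjusted p 0.451). At 18C against 12C, Lim1 in the crosses of female A3 differed by 0.25 to 0.38 (mean 0.32 ± 0.057, SD), higher at 18C in 4 of 4, and in those of D3 by 0.061 to 0.38 (mean 0.18), higher in 4 of 4. In the crosses of B4 it differed by -0.30 to -0.011 (mean -0.19 ± 0.14), lower at 18C in 4 of 4, and in those of C3 by -0.18 ± 0.25 on average. Female B4 lay outside the range of A3 and D3, but she is of block 4 and they are of block 3. That contrast therefore cannot be told apart from one between blocks or plates. The remaining females held crosses of both signs. For gsc the corresponding adjusted p was 0.753 for mothers and 0.996 for fathers, and for FoxG 0.864 and 0.996. By probe the lowest adjusted p was 0.490, for gsc 1938 and mothers (0.298% of probes called).

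Shares of variance were estimated from all cultures without a test. Of the variance of gsc, 19.4% lay between mothers, 7.26% between fathers and 69.4% between replicate cultures of a combination. For FoxG these shares were 6.41%, 7.67% and 79.0%, and for Lim1 6.54%, 4.57% and 79.9%. Over all genes the medians were 10.2%, 7.94% and 69.8%, so gsc lay above the median gene for mothers and the other 2 below it. With the array median subtracted, the share between mothers was 14.1% for gsc, 4.69% for FoxG and 8.86% for Lim1 (median 8.56%), and that between fathers 1.30%, 7.48% and 0% (median 4.36%). Lim1 then lay just above the median gene for mothers. The share of mother by temperature was 9.03% for Lim1, the sixth of 74 genes (12.7%, the second, with the array median subtracted), and 1.59% for gsc and 0% for FoxG. The SD between replicate cultures was 0.25 for gsc, 0.16 for FoxG and 0.22 for Lim1 (log2), against a median of 0.19 over genes.

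Culture stage, a score in the labels whose scale is not stated, ran from 0.190 to 0.578 in block 4 (median 0.345) and from 0.189 to 0.514 in block 3 (median 0.336). None of the 3 genes was called for a slope on it. Per 0.1 unit of the score, with cross and temperature in the model, the slope was 0.0087 ± 0.034 for gsc (adjusted p 0.926), 0.0085 ± 0.023 for FoxG (0.898) and 0.0027 ± 0.032 for Lim1 (0.991), where 1.35% of genes were called. The 95% intervals ran from -0.059 to 0.077 for gsc, from -0.037 to 0.054 for FoxG and from -0.060 to 0.065 for Lim1. By probe the slopes of the 14 ran from -0.064 to 0.068, none called, where 0.893% of probes were. Between the replicates of a combination, the more advanced culture had the higher value in 46 of 95 pairs for gsc, 55 of 95 for FoxG and 47 of 95 for Lim1. The gene called was deadringer, an oral ectoderm transcription factor gene, at 0.099 ± 0.022 per 0.1 unit. On the oral ectoderm list 1 of 14 genes was therefore called, and the list median was 0.0080 against 0.011 over all genes.

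Likeness between genes was measured as the Pearson r over the 96 cross-by-temperature means, after the array median and the block means were removed, and is given as a description; the means share arrays, parents and plates. The gene most like gsc was FoxO, a forkhead gene, with r = 0.72 (0.81 without removal of the array median), followed by the spicule matrix genes SM27 (0.60 and 0.75) and SM32 (0.54 and 0.60). Between the probes of gsc and those of FoxO, 25 of 30 pairs had r above 0. With the probes of SM27 and SM32 it was 16 of 20 and 13 of 20 pairs. FoxG was most like Msp130, a skeletogenic cell surface protein gene (0.39 and 0.81), gcm, a transcription factor gene of the pigment cell lineage (0.28 and 0.51), and brn1-2-4, a POU factor gene (0.27 and 0.59). Lim1 was most like Endo16, a gut gene (0.36 and 0.57), Chordin, a secreted BMP antagonist gene of the oral ectoderm (0.34 and 0.68), and G-cadherin, an adhesion gene (0.34 and 0.66). Probe pairs above 0 were 15 of 25 for FoxG with Msp130, 15 of 20 for Lim1 with Endo16 and 13 of 20 for Lim1 with Chordin. The like genes were picked by r over the same means, and no such count over the panel is given. Among themselves, gsc and FoxG had r = -0.23 (0.43), gsc and Lim1 -0.21 (0.31), and FoxG and Lim1 0.036 (0.57). All 3 pairs were thus positive with the array median in place, and lower with it removed. Positive r was usual across the panel with the array median in place. The median r to all other genes was then 0.40 for gsc, 0.47 for FoxG and 0.43 for Lim1. With the array median removed these medians were -0.00087, 0.0028 and 0.012.

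Probes of the same gene were weakly alike on this measure. Over the 10 pairs of gsc probes r ran from -0.24 to 0.37 with a median of 0.084, over the 10 pairs of FoxG from -0.15 to 0.39 with a median of 0.099, and over the 6 pairs of Lim1 from -0.19 to 0.52 with a median of -0.0034. Over all 74 genes the median of such medians was 0.17, and the 3 genes ranked 53, 52 and 63 from the highest. Lim1 3981 and 5127, both in exon 1, had the r of 0.52. FoxG 814 and Lim1 5127, probes of different genes, had 0.60, and FoxG 814 and gsc 5133 had -0.54. Of the 14 probes, 1 had its most alike probe on its own gene (gsc 2360, with 5188) among the other 335 probes.

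**Figure D5:**
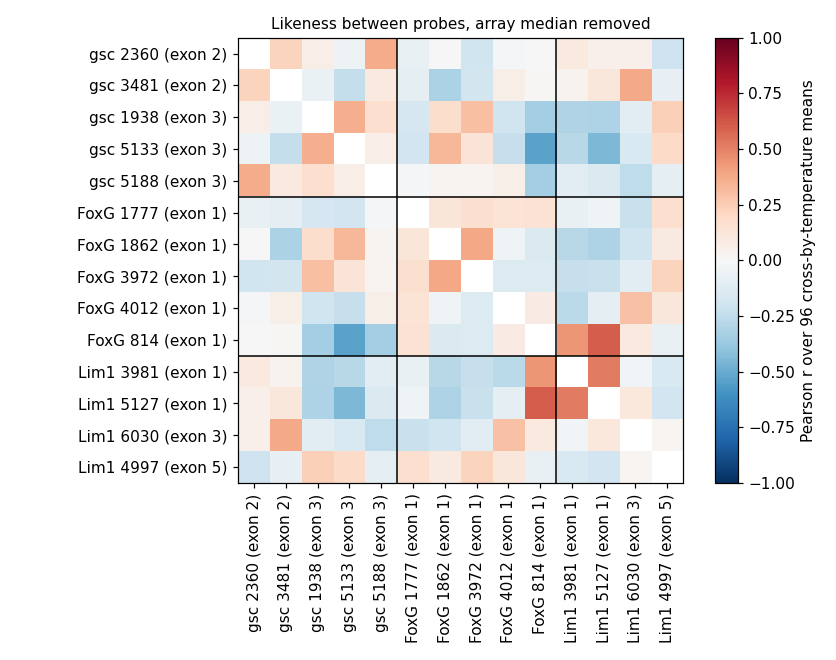
Pearson r between the 14 probes over 96 cross-by-temperature means, with the array median and block means removed (red positive, blue negative, diagonal left white). Lines part gsc, FoxG and Lim1; squares within a gene are pale apart from Lim1 3981 with 5127, and the deepest red between genes is FoxG 814 with Lim1 5127.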

How the data were processed

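Total RNA of 191 gastrula cultures was assayed by DASL, in which oligonucleotide pairs are extended and ligated on cDNA, amplified and read on a bead array. The authors' deposited normalized table holds log2 values, centred on 0 per probe within a plate as read from the values; the submitters' processing notes list BeadStudio, and how the values were normalized is not given in the sources used here. The deposited non-normalized table was read as log2 signal, from its range of values. Of its arrays, 1 was mapped to no sample and not used. Groups came from the labels. All 3 names matched 1 gene each in the reference table (gsc as Gsc).

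Temperature was tested with limma 3.58.1 (R 4.3.3) on 96 cross-by-temperature means with cross as a fixed block, and parents with moderated F tests on 32 cross means. Crosses that share a parent counted as separate units in the tests of temperature and of the blocks. Parent by temperature used the 96 means, and stage the 191 cultures. P-values were Benjamini-Hochberg adjusted over 74 genes, or 336 probes, with a threshold of 0.05. Shares of variance came from lme4 1.1.37 (REML). The fits were tested on simulated data. The number of arrays limits the precision, and whether replicates were separate fertilizations is not stated. Plate rows nearly followed temperature, which was not tested apart from it. The alternatives are given in the closing section. Members, lists, tests and alternatives were chosen with earlier results of these data known. The named genes were the 3 members with all probes, the oral ectoderm genes past the threshold, and the 3 genes most like each member. Replicate numbers did not pair cultures (median r -0.0026 over 94 pairs).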

Additional observations from a re-analysis of the deposited data

Results flagged for a closer look

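The temperature response of Lim1 differed between block 4 and block 3 in the test of the difference itself (F = 6.011), with the values and the settings that end the call given above.

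Cross means were compared within the 4 crosses of each parent, 48 groups in all. In 3 of them 1 cross lay far from the other 3, where chance gives about 1 in 20 groups. For gsc, female D4 crossed to male B4 was at -0.092 and the other crosses of D4 between 0.11 and 0.14 (gap over range 0.8431). For FoxG, male D4 crossed to female C4 was at -0.10 and the other crosses of D4 between 0.049 and 0.066 (0.9012). For Lim1, female A3 crossed to male C3 was at 0.21 and the other crosses of A3 between -0.17 and -0.11 (0.8396). The array median of that cross was 0.168, the highest of the 16 crosses of block 3.

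Lim1 probe 5184 in exon 5 is listed only in the non-normalized table and entered no comparison. Its log2 signal above the negative controls averaged 3.109 ± 0.90 in block 4 (SD, n = 95) and 1.833 ± 0.56 in block 3 (n = 96), and it exceeded their 95th percentile in 90 of 95 and 94 of 96 cultures.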

How the results depend on the processing

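The 30 results on the 3 genes were recomputed under 16 alternatives, which gave 399 values. Of these 317 kept the side of the threshold and, for differences and slopes, the direction. Calls were lost in 32 and gained in 2, and 48 changed sign. The gains were FoxG for the block difference with the brightest probe, at 0.03551, and the departure of Lim1 at 15C in block 4 alone. The F tests of blocks, parents and parent by temperature have no sign and were compared by the threshold alone. A kept call there can hold another order of parents, as for FoxG and fathers with the array median subtracted. Every sign change was in a difference or slope that was not called. Some values could not change direction. Keeping only probes above the negative controls in most cultures of both plates dropped no probe of the 3 genes. Leaving out the cross as a block gave the same temperature differences. Where a cause is not shown by the setting itself, the cause was not tested.

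For the block difference of Lim1 the adjusted p was 0.1717 with the median of its probes, 0.29 with its brightest probe, 0.2066 with the array median removed, 0.1484 and 0.3676 from the non-normalized table (centred and quantile normalized), and 0.07537 without probe 6030. It lay between 0.00476 and 0.7346 when a replicate, cross or parent was left out. For mothers, gsc was at 0.0825 in block 3 alone. FoxG was at 0.05637 with the array median removed, 0.3916 and 0.3005 from the non-normalized table and 0.1008 in block 3 alone, and Lim1 at 0.05155 without probe 3981. For fathers, gsc was at 0.3048 (array median removed), 0.2799 and 0.2809 (non-normalized table) and 0.09256 (block 4 alone). FoxG was at 0.1565 and 0.1011 (non-normalized table), 0.1402 (block 4 alone) and 0.06328 (without probe 3972). Lim1 was at 0.1549 (brightest probe), 0.4625 (array median removed), 0.7778 and 0.5451 (non-normalized table), 0.4746 (block 4 alone) and 0.327 (without probe 6030).

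Leaving out a replicate, cross or parent gave 1.48e-05 to 0.1077 for gsc, 0.0023 to 0.2527 for FoxG and 0.000494 to 0.108 for Lim1 between mothers, and 0.00298 to 0.8306, 0.0041 to 0.3814 and 0.00607 to 0.7218 between fathers. Leaving out probes, crosses and parents was chosen after seeing the data. Calls for mothers were lost without females C4 or D3 (FoxG, up to 0.136) or C3 (Lim1, 0.108), and for fathers without male C3 or D4 or cross B4xD4 (gsc, up to 0.103), male D3 (FoxG, 0.0626), and male C3 or D4 or the crosses A3xC3, C3xA3 or C3xC3 (Lim1, up to 0.651). The Lim1 block call was lost without females A3, B4 or D3, males B3, B4, C3, C4 or D3, or 7 crosses.

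At 18C against 12C the sign changed for gsc in block 3 (-0.0002395), for FoxG in block 4 (-0.0006161) and without replicate 1 (-0.0328, against 0.07163 without replicate 2), and for Lim1 with the brightest probe (-0.0334), the non-normalized table (-0.007105 and -0.007417) and block 4 (-0.02372). At 15C against 12C it changed for FoxG in block 3 (-0.01463) and for Lim1 with the brightest probe (-0.002161) and in block 3 (-0.01735). At 18C against 15C it changed for gsc under quantile normalization (0.002771) and without replicate 2 (0.03793, against -0.07454 without replicate 1). It changed for FoxG with the brightest probe (0.05232), without replicate 2 (0.04816, against -0.08427 without replicate 1) and in block 3 (0.05407), and for Lim1 with the probe median (-0.003637), brightest probe (-0.03124), array median removed (-0.004046), non-normalized table (-0.04498 and -0.04988), without replicate 1 (-0.01646, against 0.01449 without replicate 2) and in block 4 (-0.1324). The departure of 15C changed sign for FoxG with the brightest probe (-0.02301), without replicate 2 (-0.01234, against 0.06786 without replicate 1) and in block 3 (-0.03435), and for Lim1 in block 3 (-0.07547). Stage slopes changed sign for gsc at -0.02321 (probe median), -0.009135 (brightest probe), -0.002493 (array median removed), -0.01547 and -0.005841 (non-normalized table), -0.01263 (without replicate 1, against 0.025 without replicate 2), -0.01783 (block 4) and -0.04035 (replicate cultures only). Those of FoxG were -0.002716 (array median removed), -0.02526 and -0.01834 (non-normalized table), -0.00436 (plate column means removed), -0.04709 (without replicate 1, against 0.04277 without replicate 2) and -0.006889 (block 4). Those of Lim1 were -0.008518 (array median removed), -0.03509 and -0.02689 (non-normalized table), -0.01306 (plate column means removed), -0.07429 (without replicate 1, against 0.0442 without replicate 2), -0.0227 (block 4) and -0.002222 (sampling time as a covariate).

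With the replicate number as a block, all cultures were fitted singly in place of the means. Cultures of the same cross then counted as separate units in the tests of temperature, blocks and parents. Under this setting the adjusted p of Lim1 for the block difference was 0.0179, its stage slope was -0.001883, and no call on the 3 genes changed. Apart from the slope, these values are therefore not a like-for-like check of the results from means. Same-numbered cultures did not deviate together (35 of 94 pairs had r above 0.1, median -0.0026), so the numbers name cultures and do not pair them.

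Over the panel, limma called 13 genes at 18C against 12C, and 4 to 28 under the alternatives (28 from the centred non-normalized table, 4 in block 3 alone). At 15C against 12C it called 3, and 0 to 5 under the alternatives, at 18C against 15C 3, and 0 to 8, for the departure of 15C 0, and 0 to 12, and for stage 1, and 0 to 6. The block difference had 12 genes called, against 6 with probes detected on both plates, 2 with the array median removed, 2 and 1 from the non-normalized table, and 0 and 5 without replicate 1 and 2. It had 17 with the brightest probe and 17 with plate column means removed. Mothers had 60 called, against 25 and 35 without replicate 1 and 2 and 27 in block 3 alone. Fathers had 56 called, against 24 and 35 from the non-normalized table and 10 without replicate 2. In block 3 alone and block 4 alone fathers had 34 and 26. With the replicate number as a block, the block difference had 15 genes called, mothers 65 and fathers 63. That setting fitted cultures in place of means, so these counts are not like-for-like with the others. Signal over background limits gsc probe 5188, which exceeded the negative controls in 49 of 95 cultures of block 4.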
